A study of Homo sapiens with 6 samples.

Results

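The Hedgehog pathway was followed through 9 of its core genes, PTCH1, HHIP, BOC, GAS1, SMO, SUFU, GLI1, GLI2 and GLI3, in RH36 cells that had been transfected with a precursor of miR-27a. The genes were chosen with earlier results of these data known. All probes with their names in the array annotation were taken, whatever their values, and these were 13 of the 41000 probes on the array. Of these, 12 probes passed the filter on spots that the image analysis could not find, against 36469 probes with 27328 gene names kept in all, and each of the 9 genes kept at least 1 probe. None of the 12 probes passed the test of the difference between the groups. That is, 0 had a limma adjusted p under 0.05, against 7.83% of all probes kept. The 12 probes are too few for a count of 0 to be read against such a share, here or in the fits below.

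RH36 is an established cell line of embryonal rhabdomyosarcoma (ERMS), a childhood tumour of the skeletal muscle lineage, and it lacks the PAX3/FOXO1 fusion. Both groups were transfected with the same reagent. The pre-miR-27a group (3 arrays) received a synthetic precursor that cells process to mature miR-27a, and the pre-control group (3 arrays) received a negative control precursor. For the pre-miR-27a arrays the labels give 10 nM of precursor and a time point of 48 hours, and they state neither for the pre-control arrays. The methods of the study give another concentration and time for the work in RH36 cells, and which of them applies to the arrays was not settled. The labels call the arrays of a group biological replicates.

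Hedgehog ligands are secreted proteins that bind the receptor PTCH1 on the primary cilium. In the absence of ligand, PTCH1 keeps the membrane protein SMO inactive and the GLI proteins are held by SUFU and partly cut to repressors. Ligand binding frees SMO, GLI proteins then activate transcription, and PTCH1, HHIP and GLI1 are themselves classical targets, so that their mRNA is commonly read as a gauge of pathway activity. In muscle development the pathway takes part in the specification of myogenic cells, and inherited loss of PTCH1 predisposes to rhabdomyosarcoma.

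A microRNA pairs with its targets mainly through its seed, bases 2 to 8 from the 5′ end. The mature sequence of the transfected microRNA is shown with its closest relative, since the pair shares this seed. In the lines below the seed is in capitals, and the sequences are those of RefSeq on GRCh38.p14, where miR-27a-3p lies on the minus strand at chr19:13836447-13836467.
hsa-miR-27a-3p: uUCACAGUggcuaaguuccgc
hsa-miR-27b-3p: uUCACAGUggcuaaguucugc
The seed UCACAGU occurred at these bases in 3 mature human microRNAs of the RefSeq table. Whether the transcripts of the 9 genes hold matches to it was not tested.

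Of the 9 genes, 7 were matched by symbol to a RefSeq promoter window of 300 bases, from 250 bases before to 50 bases after the start of the gene, and GLI1 and GLI3 were not matched. The windows were searched on both strands for the consensus GLI site GACCACCCA, which reads TGGGTGGTC on the other strand. This was found in the window of PTCH1 and in none of the other 6 windows, and in 83 of all 35116 windows (0.236%). The PTCH1 match is shown because PTCH1 is the target through which the pathway is most often read. It lies at chr9:95509420-95509448 on GRCh38.p14, is written 5′ to 3′ on the strand of the gene, and has the motif in capitals, whose first base lies 172 bases before the start of the gene.
PTCH1 promoter: gttgcctaccTGGGTGGTCtctctacttt
The match is a description of the letters in that window, and binding of GLI proteins was not measured.

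Each RNA sample was labelled with Cy3 and hybridized to its own array of 60-base probes. Slide 1 held the pre-control arrays and slide 2 the pre-miR-27a arrays, so that slide and transfection cannot be told apart for any value below. Between 69.9% and 73.9% of spots on slide 1 and between 74.1% and 78.0% on slide 2 were well above background, and the local background had a median of 74.5 to 76 intensity units on slide 1 and of 52.5 to 53 on slide 2. After quantile normalization all 8 spike-in controls read higher on the pre-miR-27a arrays, by 0.05 to 0.42 on the log2 scale. Of the 9 markers of rhabdomyosarcoma cells that were listed, 8 were kept and well above background on all 6 arrays, whereas MYF5 was well above background on none. The brightest probes of the 8 genes all had lower means on the pre-miR-27a arrays (median log2 fold change −0.25), although that of DES turned to 0.013 with normexp background correction, and 0 of them were called by limma. A dimmer probe of CHRNA1, also well above background on all 6 arrays, was called higher (log2 fold change 0.95, adjusted p = 0.0216, and 0.0334 with the replicate block). In a fit with replicate number as block, 3 of the brightest probes had adjusted p-values under the threshold, all lower, against 7.62% of all probes called lower in that fit, namely MYOG (log2 fold change −0.95), MYOD1 (−0.45) and CDH15 (−0.35). Without the block, CDH15 was also called lower under 75th percentile scaling (adjusted p = 0.0328), with normexp (0.0341), with the filter on probes well above background (0.0467) and with a variance trend (0.0271), and MYOD1 with normexp (0.0445). Among markers of other cell types, PTPRC, EPCAM, CDH1, PECAM1 and KDR were not well above background on any array by their brightest probes, while CD14 (log2 fold change −0.71, adjusted p = 0.0223) and CD3E (−0.44, adjusted p = 0.0348) were called lower, 2 of the 4 haematopoietic markers, against 3.88% of all probes called lower. The summed linear signal of those 4 was 361 to 402 on pre-control and 258 to 280.3 on pre-miR-27a arrays, and 0 of 3 epithelial, 0 of 4 endothelial and 0 of 4 neural markers were called. The replicate block called 1 neural marker lower, SOX10 (adjusted p = 0.0371), which was well above background on 1 of the 6 arrays. The part of these differences in the values of the Hedgehog genes was not tested.

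Values are log2 of the background-subtracted spot signal after quantile normalization. A fold change is the mean of the pre-miR-27a arrays minus that of the pre-control arrays on the log2 scale, tested with limma and adjusted by the Benjamini-Hochberg method over the 36469 probes. The 95% intervals come from the same fit and are not widened for the number of probes. A level depends on the probe as well as on the transcript, so levels are compared between arrays of the same probe and not between probes. In these bulk samples, a smaller share of expressing cells and less RNA per cell cannot be told apart.

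Over all probes, limma called 2856 of 36469, which is 7.83%, with 1440 higher (3.95%) and 1416 lower (3.88%) on the pre-miR-27a arrays. None of the 12 Hedgehog probes was among them. SAM at a false discovery rate of 5% called 0 of the 12 as well, against 1329 of all probes. With 12 probes, neither count of 0 can be read against the share of all probes. At an unadjusted p under 0.05 there was 1 Hedgehog probe, that of SMO, against 24.8% of all probes kept. The measured differences of the 12 probes had a median of 0.04 against −0.02 over all probes, with 5 lower and 7 higher. Among the 9 probes whose spots all carried the well-above-background mark on the 6 arrays, the fold changes ran from −0.34 to 0.28, with 5 lower and 4 higher. Of all probes kept, 74.2% carried it on the 6 arrays, and the other 3 Hedgehog probes were those of PTCH1 and HHIP. The groups of arrays did not overlap for 1 of the 12 probes, again that of SMO, against 32.5% of all probes.

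**Figure D1:**
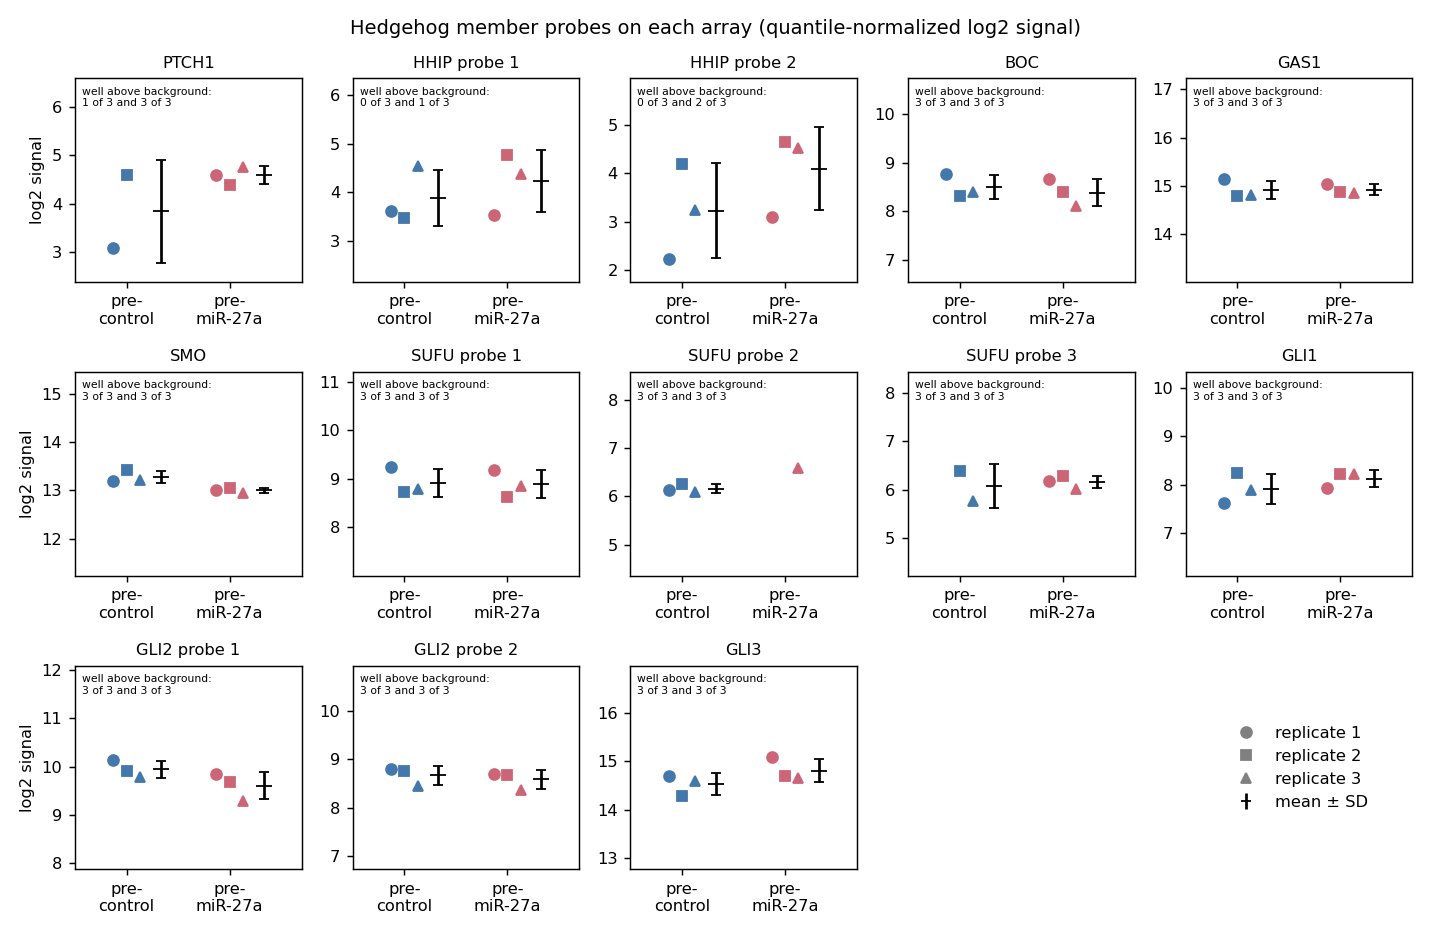
Log2 signal of each of the 13 Hedgehog probes after quantile normalization (vertical axes, of equal span in all panels) on the 3 pre-control arrays (blue) and the 3 pre-miR-27a arrays (red). Marker shapes are replicate numbers, black bars are the mean ± SD of the arrays shown, spots that were not found are left out, and the counts of arrays well above background are given for pre-control first. The groups are apart for SMO and intermingled for the other 11 kept probes, and the SUFU probe 2 panel holds 4 arrays because 2 spots were not found.

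The receptor PTCH1, both the gate of the pathway and one of its targets, was near the limit of detection by the probe that carries its name (A_24_P115490, chr9:97247269-97247328 on hg18, minus strand). Its log2 signals were 3.09 and 4.59 on pre-control arrays 1 and 2, the spot on pre-control array 3 was not found, and the pre-miR-27a arrays read 4.59, 4.39 and 4.77. The signal was well above background on 1 of 3 pre-control and on 3 of 3 pre-miR-27a arrays, and pre-control array 2 lay within the range of the pre-miR-27a arrays. The 1 pre-control spot above background was the spot that was not found, so that both pre-control values used were not well above background. The mean of the pre-miR-27a arrays, 4.58, lay below the limit of 4.82 that applies to those 2 arrays, and no fold is given. The measured difference of log2 means was 0.74 (SE 0.47, 95% interval −0.49 to 1.97, adjusted p = 0.409), from 2 pre-control and 3 pre-miR-27a arrays. It was −0.01 without pre-control array 1 and 1.49 without array 2, each time with 1 pre-control value left, and 0.22 when the missing spot, which read 5.39, was kept.

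A further probe is named in the files only by an Ensembl transcript, and its description gives patched homolog 1 (A_24_P106910, chr9:97245950-97246009 on hg18, minus strand). It fell outside the selection by gene name and is not counted among the 13. This probe was well above background on all 6 arrays, with log2 signals of 6.85, 6.72 and 7.22 on the pre-control arrays and 6.99, 7.25 and 7.40 on the pre-miR-27a arrays. The ranges overlapped, and each pre-miR-27a array was higher than the pre-control array of the same number. The fold change was 0.28 (SE 0.18, 95% interval −0.16 to 0.71, adjusted p = 0.394). The interval runs from 0.898-fold to 1.64-fold.

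HHIP, a membrane protein that captures Hedgehog ligands and a target of the pathway, was at or under the limit of detection by both of its probes. Probe 1 (A_23_P167129, chr4:145878379-145878438) gave log2 signals of 3.62, 3.48 and 4.54 on the pre-control arrays and 3.52, 4.78 and 4.37 on the pre-miR-27a arrays. Probe 2 (A_24_P401842, chr4:145800615-145800674) gave 2.24, 4.20 and 3.25 and then 3.11, 4.65 and 4.53. No pre-control array was well above background for either probe, while 1 pre-miR-27a array was so for probe 1 and 2 arrays for probe 2, and the ranges overlapped for both. The mean signals of the pre-miR-27a arrays, 4.22 and 4.10, lay below the detection limits of 4.73 and 4.67 that apply to the pre-control arrays, so that no fold is given. The measured difference of log2 means was 0.35 for probe 1 (SE 0.42, adjusted p = 0.672) and 0.87 for probe 2 (SE 0.64, adjusted p = 0.465).

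The co-receptors BOC and GAS1, which present ligand to PTCH1, were both well above background on every array. BOC (A_23_P257763, chr3:114486375-114486947, a span longer than the probe) read 8.78, 8.32 and 8.39 on the pre-control arrays and 8.66, 8.39 and 8.11 on the pre-miR-27a arrays. Its fold change was −0.11 (SE 0.19, 95% interval −0.58 to 0.36, adjusted p = 0.772), and the groups overlapped. GAS1 (A_23_P83134, chr9:88749714-88749773, minus strand) read 15.14, 14.80 and 14.81 on the pre-control arrays and 15.05, 14.88 and 14.85 on the pre-miR-27a arrays. The first array of each group was the highest, and the pre-miR-27a values lay inside the range of the pre-control values. The fold change of 0.01 (SE 0.12, adjusted p = 0.982) had a 95% interval from 0.811-fold to 1.24-fold. It turned to −0.14 under scaling by the 75th percentile.

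SMO, the membrane protein that carries the signal from PTCH1 to the GLI factors, was the 1 member whose groups of arrays did not overlap (A_23_P70818, chr7:128640473-128640532). The pre-control arrays read 13.19, 13.43 and 13.21 and the pre-miR-27a arrays 13.01, 13.05 and 12.94 on the log2 scale. Every pre-miR-27a array was below every pre-control array, as was the case for 17.8% of all probes kept. The fold change was −0.28 (SE 0.09), with a 95% interval from −0.51 to −0.04 that corresponds to 0.702-fold to 0.970-fold. It did not pass the threshold after adjustment (limma adjusted p = 0.144, unadjusted p = 0.0275), and the two-sided exact permutation p of 0.1 is the smallest that 3 arrays against 3 can give. In same-numbered pairs SMO was lower by 0.19, 0.37 and 0.27, and the adjusted p was 0.0723 with replicate number as block. Its fold change stayed between −0.35 and −0.20 in all 14 other fits, leave-one-out fits included, and its adjusted p between 0.0723 and 0.312.

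**Figure D2:**
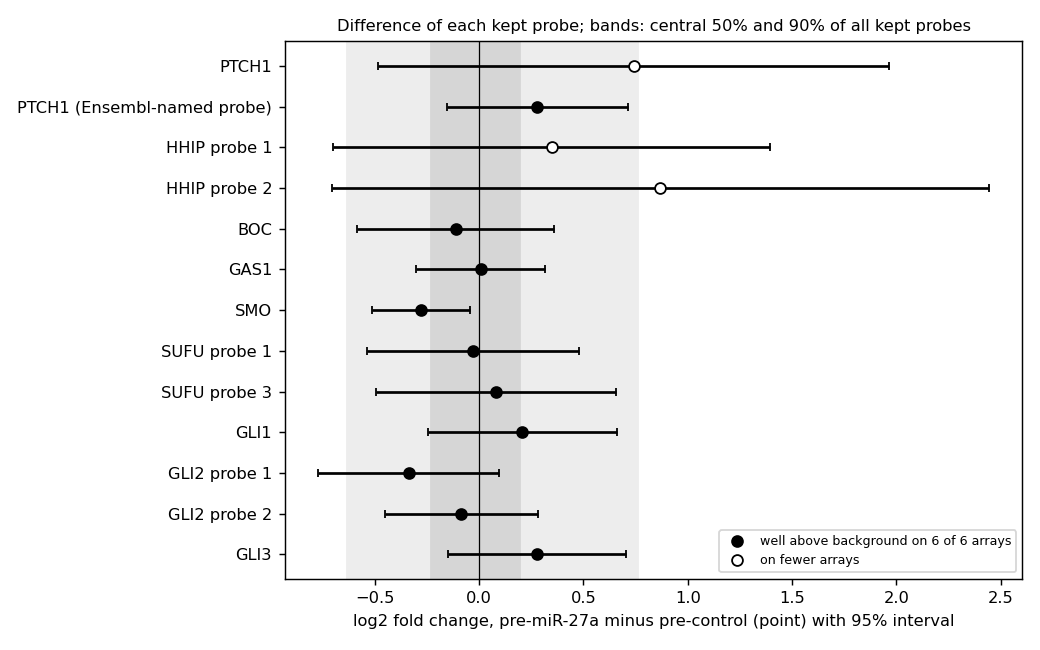
Measured difference in mean log2 signal (horizontal axis, pre-miR-27a minus pre-control) of the 12 kept Hedgehog probes and of the Ensembl-named PTCH1 probe, with 95% intervals from limma. Open circles mark probes that were well above background on fewer than 6 arrays, for which no fold is given in the text, and grey bands hold the central 50% and 90% of the 36469 kept probes (−0.23 to 0.20 and −0.64 to 0.76). These intervals come from the fit without the replicate block. That of SMO lies below 0, all others include 0, and the widest are those of PTCH1 and HHIP. With the block, HHIP probe 2, SMO and GLI2 probe 1 had an unadjusted limma p under 0.05 (0.0133, 0.0167 and 0.0165).

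SUFU, the cytoplasmic protein that restrains the GLI factors, was represented by 3 probes. Probe 1 (A_23_P425304, chr10:104383018-104383077) gave log2 signals of 9.24, 8.72 and 8.79 on the pre-control arrays and 9.19, 8.62 and 8.85 on the pre-miR-27a arrays. These values intermingled, array 1 was the highest in each group, and the fold change was −0.03 (SE 0.21, 95% interval −0.54 to 0.48, adjusted p = 0.952). Probe 3 (A_24_P149893, chr10:104367064-104367123) read 6.40 and 5.76 on pre-control arrays 2 and 3, where array 1 was not found, and 6.18, 6.28 and 6.03 on the pre-miR-27a arrays. Its fold change was 0.08 (SE 0.22, adjusted p = 0.869), with the pre-miR-27a arrays inside the range of the pre-control arrays. Probe 2 (A_24_P149902, chr10:104342443-104343413, a span longer than the probe) was removed because 2 of its pre-miR-27a spots were not found. Without the filter it read 6.14, 6.27 and 6.08 and then 6.18, 6.55 and 6.58, a fold change of 0.27 (SE 0.13, adjusted p = 0.286). The 3 probes of SUFU therefore gave 1 value below 0 and 2 above it, and none was called.

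GLI1, an activator and the most direct target of the pathway, was detected on all 6 arrays (A_23_P105251, chr12:56152238-56152297). It read 7.62, 8.24 and 7.90 on the pre-control arrays and 7.93, 8.22 and 8.22 on the pre-miR-27a arrays. The highest single value was that of pre-control array 2, and the groups overlapped. The fold change was 0.21 (SE 0.18, adjusted p = 0.546), with a 95% interval from 0.844-fold to 1.58-fold. The difference in GLI1 was thus within the spread of the arrays.

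GLI2, the factor that carries most of the activating function of the pathway, had 2 probes that lie 1 after the other on chromosome 2. Probe 1 (A_23_P209246, chr2:121466146-121466205) read 10.14, 9.90 and 9.79 on the pre-control arrays and 9.85, 9.68 and 9.30 on the pre-miR-27a arrays. Its groups overlapped because pre-miR-27a array 1 lay above pre-control array 3, yet each pre-miR-27a array was below its same-numbered control, by 0.29, 0.23 and 0.49. The fold change of −0.34 (SE 0.17, 95% interval −0.77 to 0.10) was the lowest among the Hedgehog probes, with an adjusted p of 0.305 and of 0.0718 with the replicate block. Probe 2 (A_23_P500034, chr2:121465057-121465116) read 8.80, 8.76 and 8.44 on the pre-control arrays and 8.71, 8.68 and 8.36 on the pre-miR-27a arrays. Here the same-numbered differences were −0.10, −0.07 and −0.08 and the fold change was −0.08 (SE 0.15, 95% interval −0.45 to 0.28, adjusted p = 0.778). Both GLI2 probes were lower in all pairs, and neither was called.

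GLI3, the factor that acts mainly as a repressor once it is cut, was bright on every array (A_23_P111531, chr7:41970236-41970295, minus strand). It read 14.70, 14.27 and 14.60 on the pre-control arrays and 15.08, 14.68 and 14.65 on the pre-miR-27a arrays. Pre-control array 1 lay above 2 of the 3 pre-miR-27a arrays, so that the groups overlapped, and each pre-miR-27a array was above its same-numbered control, by 0.38, 0.41 and 0.05. The fold change was 0.28 (SE 0.17, 95% interval −0.15 to 0.71, adjusted p = 0.387). GLI2 and GLI3 thus had fold changes of opposite sign, neither of which passed the test, and their difference was not tested.

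**Figure D3:**
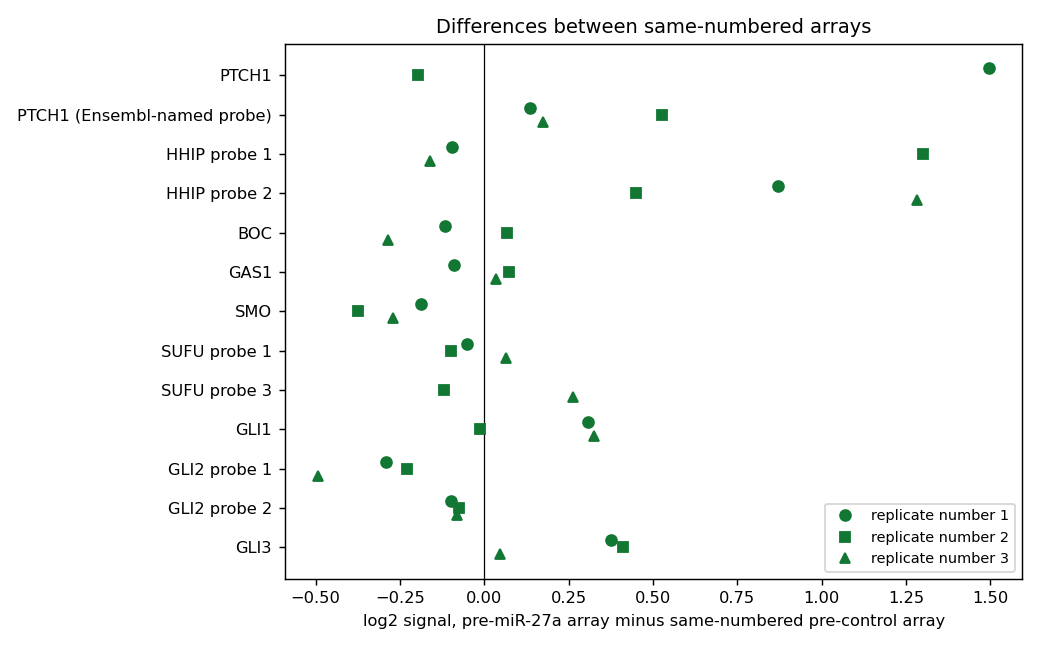
Difference in log2 signal between each pre-miR-27a array and the pre-control array of the same number (horizontal axis) for the 12 kept Hedgehog probes and the Ensembl-named PTCH1 probe, with 1 marker per replicate number. Of the 10 member probes with 3 pairs, SMO and both GLI2 probes were lower in every pair and HHIP probe 2 and GLI3 were higher in every pair, while the others were mixed. The share of all kept probes with 1 sign in every pair was not counted, so these counts are a description only.

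The arrays were taken as paired by number, as same-numbered arrays deviated together from their group means. The number is also the position of the array on its slide, so a shared replicate and a shared position cannot be told apart. Except where the block is named, the limma and SAM calls, the exact permutation p and the intervals did not use this pairing. In a fit with replicate number as block, limma called 5421 of all probes (14.9%), 2641 higher (7.24%) and 2780 lower (7.62%), and again 0 of the 12 Hedgehog probes, with adjusted p from 0.0646 for HHIP probe 2 to 0.948 for GAS1. At an unadjusted p under 0.05 there were 3 Hedgehog probes in this fit, namely HHIP probe 2, SMO and GLI2 probe 1, against 37.3% of all probes.

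**Figure D4:**
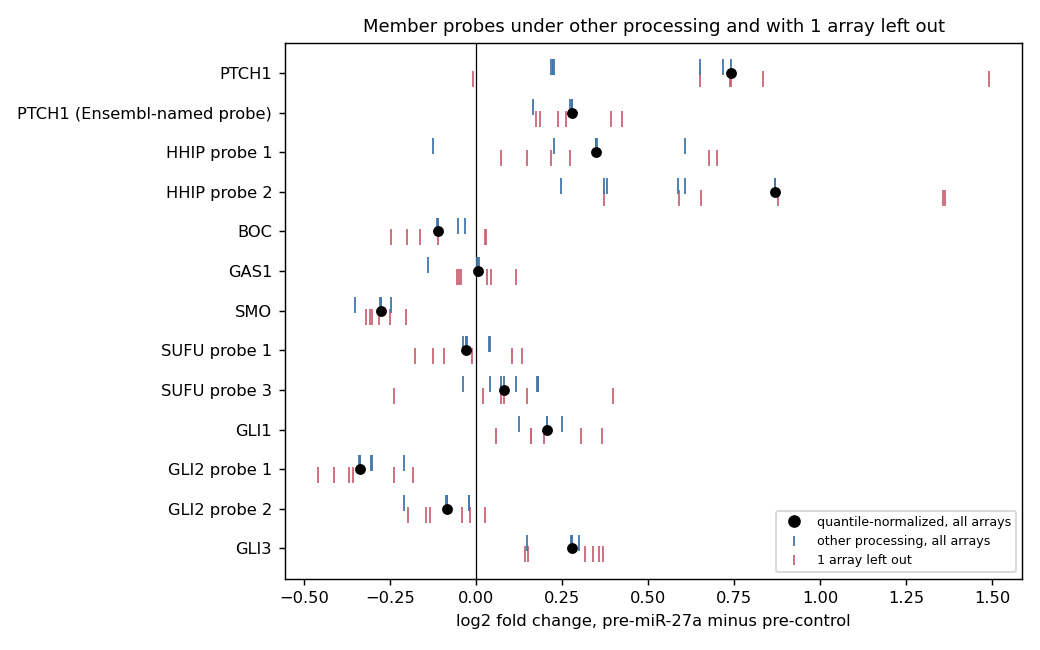
Log2 fold change (horizontal axis) of the 12 kept Hedgehog probes and of the Ensembl-named PTCH1 probe in the quantile-normalized data (black), under other processing of all arrays (blue) and with 1 array left out (red). The values of SMO and GLI2 probe 1 all lie below 0 and those of GLI1, GLI3 and HHIP probe 2 above it, while PTCH1 spans from −0.01 to 1.49.

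The rest of the pathway was read through 75 further genes grouped by role, of which 73 had a probe and 70 a kept probe. By the brightest probe of each, limma called 0 of these 70 genes, against 7.83% of all probes. SAM called 0 as well, against 1329 of all 36469 probes. An unadjusted p under 0.05 was found for 10 genes (14.3%, against 24.8% of all probes). The lowest adjusted p was 0.0542. The median fold change was −0.03, against −0.02 over all probes, with 33 genes higher and 37 lower. The single roles below hold 2 to 20 kept genes, too few for a count of 0 to be read against the 7.83%.

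Of the ligands, DHH was well above background on all 6 arrays and had a fold change of −0.21 (SE 0.13, adjusted p = 0.378). SHH was well above background on 0 of 3 pre-control and 2 of 3 pre-miR-27a arrays, with log2 means of 4.96 and 4.78 (adjusted p = 0.696), so that no fold is given. For IHH no probe was matched. None of the 6 genes of ligand release and none of the 5 further receptors and co-receptors was called. SCUBE1, a secreted protein of ligand release that is named because of its values, had a fold change of −0.84 (SE 0.21, adjusted p = 0.0871). The probe was dim, and its spot on pre-miR-27a array 1 was not found, so this value rests on the other arrays. On these the pre-miR-27a values were all lower, as for 17.8% of all probes kept. SCUBE1 was called lower without the filter on found spots (adjusted p = 0.0477), with the filter on probes well above background (0.025), with the positive and significant flag (0.0349) and with the deposited values (0.0349). CDON, a co-receptor related to BOC, had a fold change of 0.14 (SE 0.10, adjusted p = 0.43).

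Of the 17 kept genes that act at the cilium, 10 were higher and 7 lower, with 0 called and a median of 0.07. KIF7, a kinesin that organizes the tip of the cilium, had a fold change of 0.21 (SE 0.11, adjusted p = 0.297). Of the 20 genes of GLI processing and turnover, 13 were higher and 7 lower, with 0 called and a median of 0.09. Of the 20 kept genes known from other cells as transcriptional targets, 5 were higher and 15 lower, with 0 called and a median of −0.09.

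Among these targets, CCND1, which encodes cyclin D1, had fold changes of 0.62 (adjusted p = 0.239), −0.21 and 0.69 by its 3 probes, in order of falling brightness. MYCN, a proliferation factor, had 0.48 (adjusted p = 0.101) by its brighter and −0.18 by its dimmer probe, and BCL2, a survival factor, had −0.47 (adjusted p = 0.107) and 0.37. The probes of each of these 3 genes thus differed in sign. CCND2 (cyclin D2) had 0.20 (adjusted p = 0.693), and its other 2 probes gave −0.16 and 0.62. With the replicate block, the dimmest probes of CCND1 (adjusted p = 0.043) and CCND2 (adjusted p = 0.0342) were called higher as well. FOXM1, a factor of the mitotic programme, had −0.03 (adjusted p = 0.959).

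**Figure D5:**
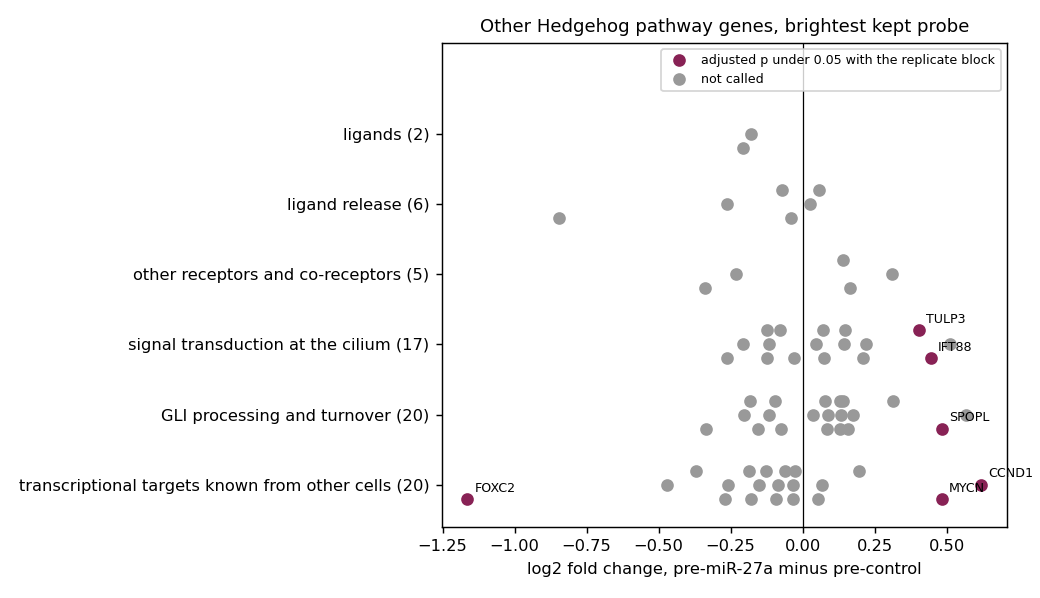
Log2 fold change (horizontal axis, pre-miR-27a minus pre-control) of the brightest kept probe of 70 other Hedgehog pathway genes, grouped by role with the number of genes in parentheses. The 6 labelled genes, in dark red, are those called with the replicate block, and without it limma called 0 of the 70.

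The block changed the number of these genes called from 0 to 6, against 14.9% of all probes in that fit. It called FOXC2 lower (log2 fold change −1.16, adjusted p = 0.0465). Called higher were SPOPL (0.49, adjusted p = 0.0469), IFT88 (0.45, adjusted p = 0.0363), TULP3 (0.40, adjusted p = 0.0363), CCND1 (0.62, adjusted p = 0.0374) and MYCN (0.48, adjusted p = 0.034). FOXC2, SPOPL, IFT88 and TULP3 are named here because of these values. SPOPL is an adaptor of a ubiquitin ligase and is listed under an older locus name in the files, IFT88 carries cargo along the cilium and TULP3 delivers receptors to it. When a gene was counted if any of its kept probes was called, there were 4 of 70 genes, each called by a probe other than the brightest. The 7.83% of all probes called is a share of single probes, and the share of all genes with any called probe was not computed. These were GRK2 (−1.11), CSNK1E (−0.47) and IQCE (−0.47), which were lower, and DYRK2 (0.52), which was higher. The GRK2 probe was dim and 1 of its pre-miR-27a spots was not found. It was well above background on 3 of 3 pre-control and 2 of 3 pre-miR-27a arrays. The brightest probes gave −0.21 for GRK2, −0.12 for IQCE and 0.13 for DYRK2. The call of GRK2 was lost with the block (adjusted p = 0.0636), and for CSNK1E the brightest probe had the opposite sign (0.32).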

How the data were processed

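The authors deposited, for each spot of 6 one-colour Agilent arrays (3 pre-control, 3 pre-miR-27a), the processed intensity of Feature Extraction 10.5.1.1, which is corrected for background within the array and not normalized between arrays, with quality flags. They also deposited a table of quantile-normalized log2 values, used here as an alternative. Per-sample columns left unused numbered 0. Control spots were left out, log2 intensities were quantile normalized, spots not found were set to missing, replicate spots were averaged and probes missing on more than 1 array were removed. The groups were compared in R 4.3.3 with limma 3.58.1 over all kept probes, with Benjamini-Hochberg adjusted p-values called at 0.05, and the code was tested on simulated data. SAM used all 20 relabellings and did not pair the arrays. Other alternatives were 75th percentile scaling, normexp (offset 50), other filters, a variance trend with robust estimation, gene means, the replicate block and leaving out each array.

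Same-numbered arrays correlated in their deviations from group means (0.40, 0.46 and 0.41 over 31717 probes). Different numbers gave −0.27 to −0.12. Deviations within a group cancel out, so these negative values follow from the positive ones and are no separate support. The numbers given by the labels, which are also the positions on the slide, were taken to pair the arrays. The slide was not fitted, since each slide held 1 group. The number of arrays limits the precision, with a median SE (log2) of 0.14 over all probes kept and of 0.19 over the 12 Hedgehog probes.

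All probes of the 9 genes are named. Other pathway genes were to be named when the brightest probe was called, and SHH, IHH, DHH, CDON, KIF7, CCND1, CCND2, MYCN, BCL2 and FOXM1 in any case. In addition, SCUBE1, FOXC2, SPOPL, IFT88 and TULP3 are named because of their values in other fits. GRK2, CSNK1E, IQCE and DYRK2 are named because a probe other than the brightest was called. Of the listed pathway genes, 1 is not reported here and is left out of their counts. Members and lists were chosen with earlier results of these data known. Probe positions are those of the files (hg18). Exons, introns and untranslated regions were not assigned.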

Additional observations from a re-analysis of the deposited data

How the results depend on the processing

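The count of 0 called Hedgehog probes was found under every alternative run, with SAM included, and the lowest adjusted p was 0.0646, with the replicate block. Of the fits that left out 1 array, 4 called 0 of all probes and 1 called 81, so that their count of 0 says nothing about stability. Of the 12 kept probes, 5 (HHIP probe 2, SMO, GLI1, GLI2 probe 1 and GLI3) kept their sign throughout, while with single arrays left out HHIP probe 2 ran from 0.37 to 1.36, SMO from −0.32 to −0.20, GLI1 from 0.059 to 0.37, GLI2 probe 1 from −0.46 to −0.18 and GLI3 from 0.14 to 0.37. CCND2 ran from 0.0060 to 0.40. Fold changes of the others that turned were all small or of dim probes, and none was called. Under 75th percentile scaling GAS1 read −0.14 and SUFU probe 1 read 0.036. With normexp HHIP probe 1 read −0.13, SUFU probe 1 0.041, SHH 0.18 and DES 0.013, and as the mean of its kept probes SUFU read −0.037. With single arrays left out, the ranges were −0.0089 to 1.49 for PTCH1, −0.25 to 0.029 for BOC, −0.055 to 0.12 for GAS1, −0.18 to 0.13 for SUFU probe 1, −0.24 to 0.40 for SUFU probe 3, −0.20 to 0.025 for GLI2 probe 2, −0.23 to 0.23 for DES and −0.24 to 0.19 for FOXM1.

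Over all probes the 2856 calls became 5421 with the replicate block, which pairs the arrays, 1329 with SAM, and 0 to 1276 with single arrays left out, being 1276 without pre-control replicate 1, 81 without pre-control replicate 3 and 0 without any other. Unadjusted p-values under 0.05 then numbered 7178 to 8636. Under 75th percentile scaling the division was 1275 higher and 1981 lower. Of the 70 other pathway genes, 0 were called. The number was 2 under 75th percentile scaling and with a variance trend (SPOPL and FOXC2), 1 with no filter, 4 with normexp, 3 with the filter on probes well above background, with the positive and significant flag and with the deposited values, 6 with the replicate block, 4 by any probe, and 0 with SAM and with any single array left out. The calls over all probes also differed between these fits. Of 36469 probes, 3256 were called under 75th percentile scaling, 3378 with a variance trend and 3527 with normexp. With no filter the count was 2994 of 41000, and with the filter on probes well above background 3870 of 29963. It was 3309 of 33189 with the positive and significant flag and 3343 of 33169 with the deposited values. Beyond the changes given above for the replicate block, it changed no other call of a gene named here. Dim signals limit PTCH1, HHIP and SHH. The cause of these changes was not tested.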
